A study of Mus musculus with 20 samples.

Results

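The genes described here encode the constitutive proteasome and its assembly factors, in BV-2, a mouse line of immortalized microglia. Members were all protein-coding genes of the counts table whose symbol starts with Psma, Psmb, Psmc, Psmd, Psme, Psmf or Psmg, without the IFNγ-inducible subunits and activators Psmb8, Psmb9, Psmb10, Psme1 and Psme2. The rule found 46 members among 56941 gene IDs, 1 of them (Psme3ip1) under an older symbol, and used no measured value. By role they were 8 alpha and 8 beta subunits of the 20S core, 6 ATPases, 3 other subunits of the base and 8 of the lid of the 19S particle, 3 chaperones of 19S assembly, 4 chaperones of 20S assembly, 3 activators or inhibitors, and 3 genes that carry the name without being subunits (Psmc3ip, Psme2b and Psme3ip1).

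Poly(A)-enriched RNA was sequenced from 4 groups of 5 libraries. They were RGS10 knockout cells given IFNγ at 10 ng/mL for 48 h, RGS10 knockout cells given medium as vehicle for 48 h, and wild-type cells given each of these. In every group the labels put replicates 1 to 3 in batch 1, replicate 4 in batch 2 and replicate 5 in batch 3. The sources used here do not say how the knockout line was made or how many clones it holds, so a difference between the lines cannot be told apart from a difference between clones.

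The proteasome degrades proteins that carry ubiquitin chains. Its 20S core is a barrel of alpha and beta rings, with the proteolytic sites on beta subunits inside, and the 19S particle at its ends binds ubiquitin, removes it, unfolds the substrate with a ring of ATPases and feeds it into the core. Dedicated chaperones build the core and the base. In macrophages and microglia IFNγ is known to induce an alternative set of catalytic beta subunits and the PA28 activator, which change the peptides made for MHC class I. The members here are the genes this exchange leaves in place or replaces.

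Library totals ran between 15866749 and 29157740 counts. Levels below are CPM, counts scaled to library totals adjusted by TMM (trimmed mean of M-values), and differences are log2 ratios ± SE from edgeR's quasi-likelihood model with a batch term, with p-values adjusted by Benjamini-Hochberg over all 13755 genes tested and a threshold of 0.05. Of the 46 members, 44 passed the filter on low counts. Psma8, an alpha subunit known from testis, had no read in any library, and Psmb11, a beta subunit known from thymus, reached at most 0.383 CPM in any library. Rgs10 averaged 28.2 ± 4.6 CPM in knockout cells and 63.0 ± 6.6 CPM in wild-type cells under vehicle (SD, n = 5 each, exact two-sided permutation p = 0.00794, the smallest these groups allow), so its transcript was reduced and not absent. Under IFNγ the means were 24.4 ± 14.7 CPM in knockout and 29.6 ± 11.7 CPM in wild-type cells (SD, n = 5 each, exact permutation p = 0.46), a difference within the spread over all batches. Each SD spans the 3 batches and the permutation ignored batch, so it cannot decide whether the lines differed within batches. Of 14 microglial and macrophage genes none was at 0 in a whole group, with summed levels, in CPM of plain library totals, of 3845 to 4714 CPM in knockout cells with IFNγ, 3031 to 3691 CPM in knockout cells with vehicle, 4412 to 4817 CPM in wild-type cells with IFNγ and 3332 to 3851 CPM in wild-type cells with vehicle. The 2 homeostatic microglia markers among them were low, P2ry12 at 0.728 to 7.33 CPM and Tmem119 at 1.22 to 17.3 CPM. The sums of 3 neuronal, 3 astrocytic, 3 fibroblast and 2 lymphocyte markers stayed at or below 0.61 CPM in every library. Those of 3 oligodendrocyte markers (0.484 to 6.74 CPM) and 3 endothelial markers (0.272 to 10.8 CPM) were low.

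The IFNγ libraries of batches 2 and 3 stood apart. Their TMM factors were 0.892 and 0.879 in knockout cells and 0.635 and 0.764 in wild-type cells, against 1.01 to 1.12 in the other 16 libraries. Malat1, a nuclear noncoding RNA, stood at 1625 and 1143 CPM in these libraries of knockout cells and at 2389 and 1251 CPM in those of wild-type cells, against at most 370.1 CPM in the others. Fits of batch 1 alone and of batches 2 and 3 alone are given below. Whether Malat1 or the TMM factor accounts for a difference was not tested.

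Promoters of 38 of the 46 members were matched by symbol in a RefSeq table of windows from 250 bases before to 50 bases after each gene start on GRCm38.p6, a build other than the GRCm39 named for the counts. The 250 bases before the start are shown for 4 genes the results turn on: Psmg1, which fell most with IFNγ, Psmf1, which rose in both lines, and Psmb5 and Psmb6, catalytic subunits that are exchanged under IFNγ. Capitals mark matches, on either strand, to 2 motifs: TGACNNNGC, the core of the antioxidant response element used by Nfe2l1 and Nfe2l2, and a core of the interferon-stimulated response element (ISRE), which is GAAA, any 2 bases and GAAA. Psmg1 lies at chr16:95990961-95991210 on the minus strand, Psmf1 at chr2:151741311-151741560 on the minus strand, Psmb5 at chr14:54617996-54618245 on the minus strand and Psmb6 at chr11:70525107-70525356 on the plus strand, each written 5′ to 3′ along the gene.
Psmg1: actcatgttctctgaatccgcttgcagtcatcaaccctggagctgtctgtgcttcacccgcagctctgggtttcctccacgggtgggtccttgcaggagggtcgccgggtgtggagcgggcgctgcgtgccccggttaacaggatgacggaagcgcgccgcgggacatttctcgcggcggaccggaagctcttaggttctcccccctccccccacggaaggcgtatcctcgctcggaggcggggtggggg
Psmf1: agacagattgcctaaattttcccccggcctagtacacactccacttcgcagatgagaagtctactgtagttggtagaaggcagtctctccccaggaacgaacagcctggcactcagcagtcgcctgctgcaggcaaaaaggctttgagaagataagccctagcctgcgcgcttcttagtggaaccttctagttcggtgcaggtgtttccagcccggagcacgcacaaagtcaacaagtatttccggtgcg
Psmb5: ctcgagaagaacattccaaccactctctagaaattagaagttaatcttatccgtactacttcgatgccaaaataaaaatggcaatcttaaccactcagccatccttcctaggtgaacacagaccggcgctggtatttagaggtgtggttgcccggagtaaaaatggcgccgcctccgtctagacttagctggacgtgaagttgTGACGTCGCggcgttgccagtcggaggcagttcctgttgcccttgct
Psmb6: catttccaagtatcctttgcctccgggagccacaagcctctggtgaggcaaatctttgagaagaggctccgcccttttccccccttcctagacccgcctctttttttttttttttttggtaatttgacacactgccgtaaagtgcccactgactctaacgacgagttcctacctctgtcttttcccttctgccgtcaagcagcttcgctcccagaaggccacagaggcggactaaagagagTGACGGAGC
Psmb5 and Psmb6 each held 1 match to TGACNNNGC, 47 and 9 bases before the start, and Psmg1 and Psmf1 held neither motif. Over the full windows, TGACNNNGC was found in 6 of 38 members (Psmb5, Psmb6, Psmc6, Psmd9, Psmd12 and Psme4) and in 12.4% of all 32851 windows. The ISRE core was found in 4 members (Psmb3, Psmd4, Psmd9 and Psmg4) and in 3.44% of all windows. A member counted if any of its windows matched, whereas the percentages count single windows, so the units are unlike. Among the 5 inducible genes Psme1 held the ISRE core. A match is a run of letters and no evidence of binding.

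Levels between genes were compared per kilobase of summed exon length from GENCODE vM21. In wild-type cells with vehicle Psmb6, the subunit with caspase-like activity, was highest at 172 ± 21.8 CPM per kb (SD, n = 5), followed by the alpha subunit Psma5 at 148 ± 25.5, the beta subunit Psmb4 at 139 ± 19.3 and the alpha subunit Psma6 at 139 ± 21.8 CPM per kb. Psma5, Psmb4 and Psma6 differed from each other by less than 1 SD of any of them. Psmb5, the chymotrypsin-like subunit, stood at 82.9 ± 13.8 CPM per kb and Psmb7, the trypsin-like subunit, at 40.3 ± 6.3 CPM per kb. Subunits of the base ranged between 25.8 ± 9.8 CPM per kb for Psmd1, its largest scaffold, and 118 ± 22.1 CPM per kb for Psmd2, a scaffold that docks ubiquitin shuttles. The core chaperones Psmg4, Psmg1 and Psmg2 lay at 46.3 ± 9.9, 35.5 ± 6.8 and 26.6 ± 8.0 CPM per kb and Psmg3 at 2.96 ± 1.01 CPM per kb. The inhibitor Psmf1 was also low, at 5.98 ± 1.13 CPM per kb. Lengths differ between isoforms, so this order holds for these exon models.

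The 46 members took 0.464 to 0.816% of counts (median 0.794%) in knockout cells with IFNγ and 0.715 to 0.809% (median 0.767%) in knockout cells with vehicle. In wild-type cells they took 0.454 to 0.617% (median 0.607%) with IFNγ and 0.579 to 0.793% (median 0.745%) with vehicle. The wild-type cells with IFNγ overlapped their vehicle cells only through replicates 4 and 5 of the vehicle group, at 0.614 and 0.579%. The knockout libraries with IFNγ lay at 0.794 to 0.816% in batch 1 and, in batches 2 and 3, at 0.638 and 0.464%. These are bulk libraries, in which fewer cells holding a transcript and less transcript per cell cannot be told apart.

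**Figure D1:**
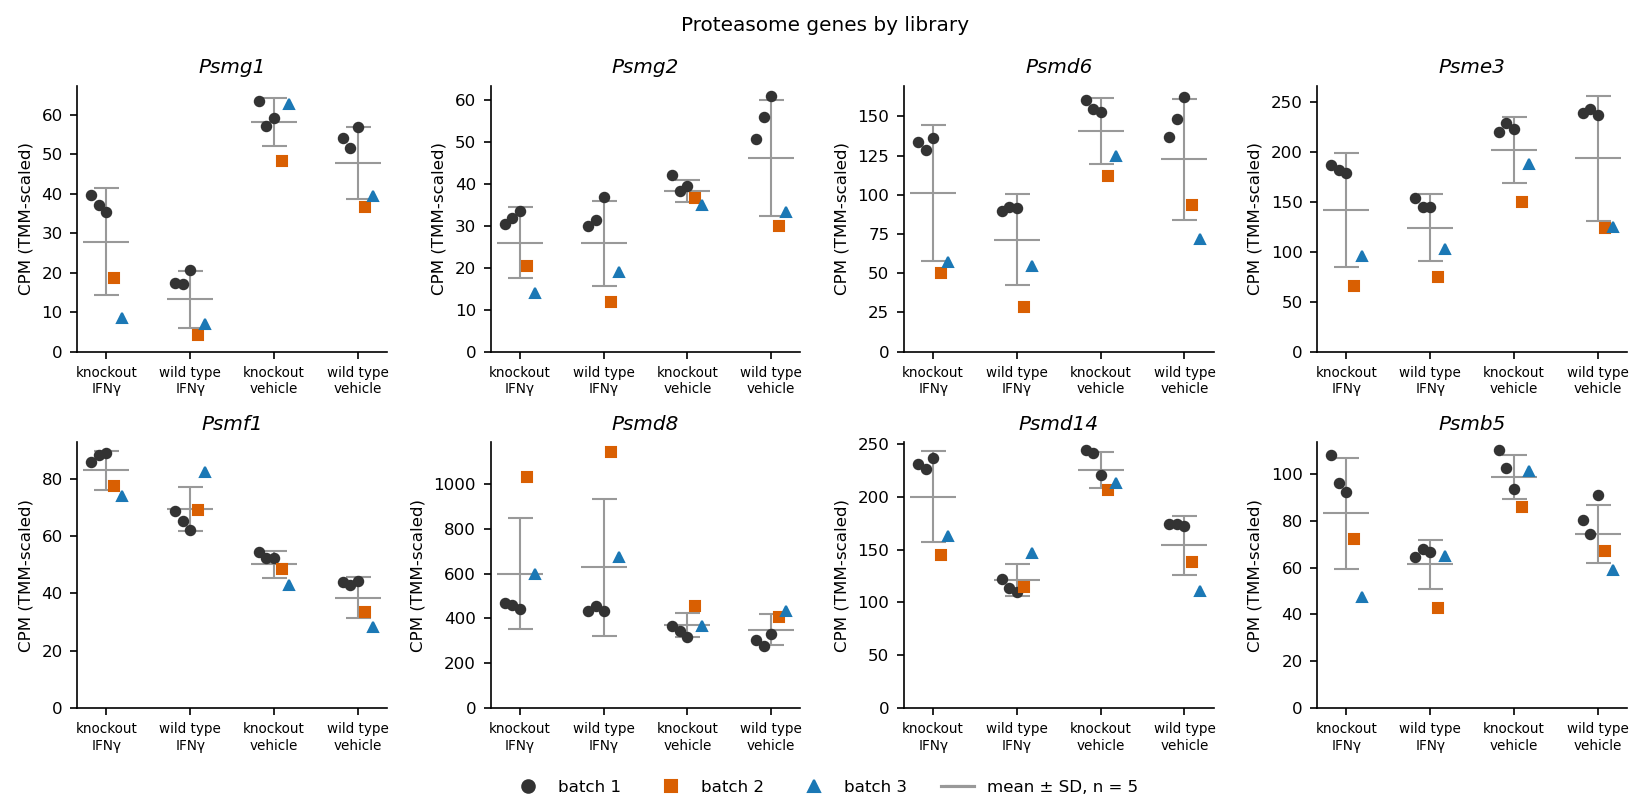
CPM (TMM-scaled, linear axis from 0) of 8 members in each library of the 4 groups, with batch shown by symbol and the mean ± SD of 5 libraries in grey. Under IFNγ Psmg1 lies below and Psmf1 above every vehicle library of the same line, and the batch 2 and 3 libraries often lie apart from batch 1.

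With IFNγ, members passed the threshold in both directions. Their shares lay below those of all genes, except for the fall in wild-type cells, where it was near that share. In knockout cells 3 members rose and 6 fell of the 44 tested, against 21.4% and 21.8% of all 13755 genes. In wild-type cells 5 members rose and 14 fell, against 29% and 29.9% of all genes. The median log2 ratio of the members was -0.15 in knockout and -0.19 in wild-type cells, beside -0.02 and 0.01 over all genes tested. Psmd8, Psme2b and Psmf1 rose in both lines, and Psmc5, Psmd6, Psmd10, Psme3, Psmg1 and Psmg2 fell in both. All 5 IFNγ libraries were above all 5 vehicle libraries for 2 members in knockout cells and 4 in wild-type cells, against 13.4% and 18% of all genes. They were below all 5 for 3 members in knockout and 1 in wild-type cells, against 14.2% and 18.2%. Of the 44 members, 17 passed the threshold in none of the comparisons over all batches. These were Psma1, Psma2, Psma5, Psmb1, Psmb3, Psmb4, Psmb7, Psmc2, Psmc4, Psmc6, Psmd2, Psmd4, Psmd5, Psmd11, Psmd13, Psme4 and Psmg3.

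**Figure D2:**
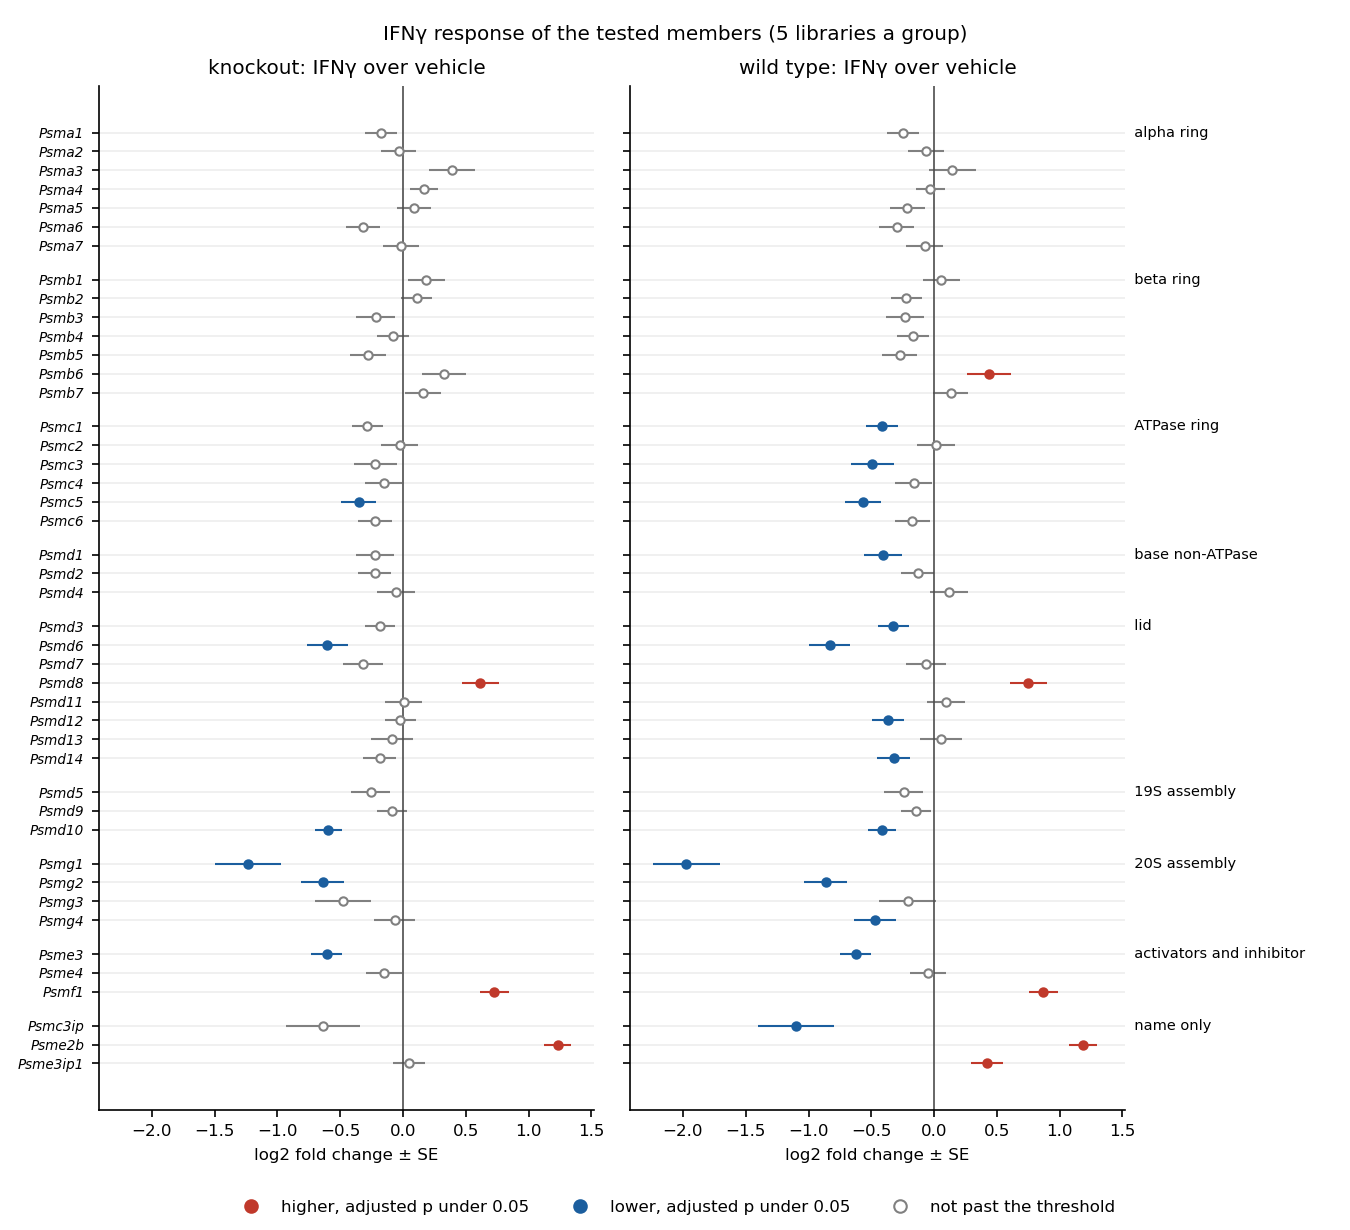
Log2 ratio (IFNγ over vehicle) ± SE of the 44 tested members, by role, in knockout and wild-type cells, from edgeR's model over 20 libraries. Filled red points rose and filled blue points fell at an adjusted p under 0.05, with Psmg1 farthest to the left in both lines.

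Of the 4 chaperones of 20S assembly, 2 fell in knockout and 3 in wild-type cells. Psmg1 and Psmg2 form a dimer that scaffolds the alpha ring and keeps it from pairing wrongly. Psmg1 stood at 39.8, 37.2, 35.3, 18.6 and 8.55 CPM in knockout cells with IFNγ, against 63.6, 57.1, 59.3, 48.4 and 62.9 CPM in knockout cells with vehicle. The wild-type levels were 17.4, 17.1, 20.7, 4.21 and 6.99 CPM with IFNγ, against 54.1, 51.7, 56.9, 36.7 and 39.4 CPM with vehicle. In both lines every IFNγ library lay below every vehicle library, and the libraries of batches 2 and 3 were lowest under IFNγ. The log2 ratios were -1.23 ± 0.26 in knockout (adjusted p = 8.7e-04) and -1.97 ± 0.27 in wild-type cells (adjusted p = 3.9e-06), and both kept their call in all 29 alternative settings. By batch the ratio was -0.68, -1.38 and -2.87 in knockout cells and -1.56, -3.10 and -2.48 in wild-type cells for batches 1, 2 and 3. The fall was larger in batches 2 and 3 than in batch 1, by -1.35 ± 0.32 in knockout (adjusted p = 0.0038) and -1.18 ± 0.34 in wild-type cells (adjusted p = 0.011), in a test added after the data were seen.

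Psmg2 stood at 30.4, 31.8, 33.6, 20.4 and 13.9 CPM in knockout cells with IFNγ, against 42.1, 38.2, 39.6, 36.6 and 35.1 CPM with vehicle. Wild-type cells had 30.0, 31.4, 36.9, 11.9 and 18.9 CPM with IFNγ, against 50.8, 56.0, 60.9, 29.9 and 33.2 CPM with vehicle. The knockout groups did not overlap, and the wild-type groups overlapped across batches while IFNγ lay below vehicle within each. It fell by 0.64 ± 0.17 in knockout (adjusted p = 0.0048) and by 0.86 ± 0.17 in wild-type cells (adjusted p = 2.2e-04) on the log2 scale. Psmg4, which pairs with Psmg3 in the other chaperone dimer of the core, had a log2 ratio of -0.07 ± 0.16 in knockout cells (adjusted p = 0.77) and fell by 0.47 ± 0.17 in wild-type cells (adjusted p = 0.020), a call lost without wild-type vehicle replicate 5 or wild-type IFNγ replicate 4 and between -0.68 and -0.35 over the 29 settings. Psmg3 did not pass in either line, at -0.48 ± 0.22 in knockout and -0.21 ± 0.22 in wild-type cells. The core maturation factor Pomp, which lies outside the symbol rule, rose by 0.82 ± 0.20 in knockout (adjusted p = 0.0029) and 0.97 ± 0.20 in wild-type cells (adjusted p = 4.4e-04).

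Of the activators and the inhibitor, 1 rose and 1 fell in both lines. Psmf1, a proline-rich protein first described as an inhibitor of the core, stood at 85.7, 88.4, 88.9, 77.5 and 74.0 CPM in knockout cells with IFNγ, against 54.5, 52.2, 52.4, 48.3 and 42.9 CPM with vehicle. In wild-type cells it stood at 68.6, 65.4, 62.1, 68.9 and 82.2 CPM with IFNγ, against 43.8, 42.9, 44.1, 33.3 and 28.2 CPM with vehicle. The groups did not overlap in either line. The log2 ratios were 0.73 ± 0.12 in knockout (adjusted p = 6.3e-05) and 0.87 ± 0.12 in wild-type cells (adjusted p = 3.8e-06), held in all 29 settings. In wild-type cells the rise was larger in batches 2 and 3 than in batch 1 by 0.72 ± 0.15 (adjusted p = 0.0012).

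Psme3, the nuclear activator that works without ubiquitin, stood at 187, 182, 178, 65.5 and 96.0 CPM in knockout cells with IFNγ, against 220, 228, 222, 150 and 187 CPM with vehicle. The wild-type levels were 154, 144, 145, 75.0 and 102 CPM with IFNγ, against 239, 243, 237, 124 and 125 CPM with vehicle. IFNγ lay below vehicle within every batch, although the groups overlapped because batches 2 and 3 were lower throughout. It fell by 0.61 ± 0.12 in knockout (adjusted p = 6.1e-04) and by 0.62 ± 0.12 in wild-type cells (adjusted p = 2.4e-04) on the log2 scale. Psme4, the other nuclear activator, had ratios of -0.15 ± 0.15 in knockout and -0.05 ± 0.15 in wild-type cells and passed in neither.

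In the lid, which carries the deubiquitinase Psmd14, 1 subunit rose and 1 fell in both lines. Psmd8 stood at 468, 459, 443, 1033 and 600.2 CPM in knockout cells with IFNγ, against 366, 346, 319, 457 and 367 CPM with vehicle. Wild-type cells had 434, 454, 435, 1145 and 673 CPM with IFNγ, against 303, 277, 329, 408 and 434 CPM with vehicle. The batch 2 libraries with IFNγ were highest in both lines, and IFNγ lay above vehicle within each batch. It rose by 0.62 ± 0.15 in knockout (adjusted p = 0.0021) and by 0.75 ± 0.15 in wild-type cells (adjusted p = 2.1e-04). Psmd6, a structural subunit of the lid, stood at 133, 128, 136, 50.1 and 57.1 CPM in knockout cells with IFNγ, against 160, 155, 153, 112 and 125 CPM with vehicle. In wild-type cells it stood at 89.7, 92.4, 91.9, 28.5 and 54.8 CPM with IFNγ, against 137, 149, 163, 93.2 and 71.9 CPM with vehicle. IFNγ lay below vehicle in all 3 batches of both lines. It fell by 0.60 ± 0.16 in knockout (adjusted p = 0.0057) and by 0.83 ± 0.16 in wild-type cells (adjusted p = 2.4e-04) on the log2 scale.

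The other lid calls were made in wild-type cells alone, and whether the lines differed there is given with the difference of responses below. Psmd3, Psmd12 and Psmd14 fell in wild-type cells by 0.32 ± 0.12, 0.37 ± 0.13 and 0.32 ± 0.13 on the log2 scale (adjusted p = 0.029, 0.018 and 0.043), with ratios of -0.18 ± 0.12, -0.02 ± 0.13 and -0.19 ± 0.13 in knockout cells. All 3 calls were lost with batches 2 and 3 alone. In wild-type cells Psmd14 had ratios of -0.59, -0.28 and 0.40, Psmd12 of -0.69, -0.11 and 0.31, and Psmd3 of -0.55, -0.25 and 0.26, in batches 1, 2 and 3, so all 3 were above 0 in batch 3. Leaving out any 1 of the wild-type IFNγ replicates 1 to 3 ended all 3 calls, with values of -0.26 to -0.29 for Psmd14 and -0.30 to -0.32 for Psmd12. Leaving out wild-type vehicle replicate 1, 2, 3 or 4 also ended that of Psmd14, at -0.30 to -0.31. Psmd3 was also lost without wild-type vehicle replicate 1, 2 or 3 or wild-type IFNγ replicate 4, and lay between -0.56 and 0.03 over the 29 settings. Psmd7, Psmd11 and Psmd13 did not pass in either line.

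Among the ATPases, which thread substrates into the core, Psmc5 was the member called in both lines. It stood at 148, 144, 140, 79.2 and 66.3 CPM in knockout cells with IFNγ, against 154, 143, 146, 119 and 142 CPM with vehicle. The wild-type levels were 101, 108, 98.6, 81.5 and 92.3 CPM with IFNγ, against 174, 161, 192, 110 and 96.1 CPM with vehicle. In knockout cells batch 1 hardly differed and batches 2 and 3 were lower with IFNγ. It fell by 0.35 ± 0.14 in knockout (adjusted p = 0.049), a call that held in 10 of 29 settings and stood at -0.23 without knockout IFNγ replicate 5. In wild-type cells it fell by 0.57 ± 0.14 on the log2 scale (adjusted p = 0.0019), with IFNγ below vehicle in every batch. Psmc1 and Psmc3 fell in wild-type cells by 0.41 ± 0.12 and 0.49 ± 0.17 on the log2 scale (adjusted p = 0.0073 and 0.018), and had ratios of -0.29 ± 0.12 and -0.22 ± 0.17 in knockout cells. Both calls were lost with batches 2 and 3 alone, where Psmc1 stood at -0.16 and Psmc3 at -0.01, and Psmc3 was also lost without wild-type vehicle replicate 3. By batch the wild-type ratios were -0.59, -0.47 and 0.12 for Psmc1 and -0.79, -0.26 and 0.19 for Psmc3 in batches 1, 2 and 3. Psmc2, Psmc4 and Psmc6 passed in neither line. Psmd1, the scaffold of the base, fell in wild-type cells by 0.41 ± 0.15 (adjusted p = 0.027), lost without wild-type vehicle replicate 1 or 2 or wild-type IFNγ replicate 1, 2 or 3 at -0.35 to -0.39, and with batches 2 and 3 alone at 0.026. Its wild-type ratios were -0.70, -0.18 and 0.27 in batches 1, 2 and 3. Psmd2 and the ubiquitin receptor Psmd4 passed in neither line.

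Of the 3 chaperones that assemble the base, Psmd10, also called gankyrin, fell in both lines. It stood at 53.6, 47.4, 48.4, 44.4 and 44.8 CPM in knockout cells with IFNγ, against 72.2, 71.5, 68.8, 78.3 and 71.0 CPM with vehicle. Wild-type cells had 37.5, 35.1, 36.6, 49.5 and 52.4 CPM with IFNγ, against 52.1, 52.2, 53.6, 59.0 and 62.8 CPM with vehicle. The knockout groups did not overlap, and in wild-type cells 1 IFNγ library exceeded the lowest vehicle libraries. It fell by 0.59 ± 0.11 in knockout (adjusted p = 2.4e-04) and by 0.42 ± 0.11 in wild-type cells (adjusted p = 0.0029). Psmd5 and Psmd9 passed in neither, with ratios between -0.09 and -0.26.

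Of the 14 tested subunits of the core rings, 1 passed under IFNγ in 1 line. Psmb6 stood at 484, 436, 439, 1293 and 399 CPM in knockout cells with IFNγ, against 414, 413, 409, 525 and 460 CPM with vehicle. In wild-type cells it stood at 342, 357, 360, 784 and 470.2 CPM with IFNγ, against 288, 270, 332, 361 and 356 CPM with vehicle. The batch 2 library was highest of all in both lines under IFNγ, and in knockout cells batch 3 was lower with IFNγ than with vehicle. It rose by 0.44 ± 0.18 in wild-type cells (adjusted p = 0.038), and the ratio was 0.32 ± 0.18 in knockout cells (adjusted p = 0.14). The wild-type call was lost without wild-type vehicle replicate 1, 2 or 4 or wild-type IFNγ replicate 4 or 5, at 0.29 to 0.44. It was also lost with plain library totals, no batch term, the replicate block, and batches 2 and 3 alone. Over the 29 settings it held in 20, with ratios of 0.21 to 0.73. Psmb5 had ratios of -0.28 ± 0.14 in knockout and -0.27 ± 0.14 in wild-type cells, and Psmb7 of 0.16 ± 0.14 and 0.13 ± 0.14. The 7 alpha subunits had ratios between -0.32 and 0.39 in knockout and between -0.30 and 0.15 in wild-type cells, and none passed.

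The inducible counterparts rose in both lines. Psmb8, Psmb9, Psmb10, Psme1 and Psme2 had log2 ratios of 1.37 ± 0.19, 2.55 ± 0.15, 1.42 ± 0.15, 1.10 ± 0.15 and 1.02 ± 0.16 in knockout cells, and of 0.93 ± 0.19, 1.49 ± 0.15, 1.46 ± 0.15, 0.87 ± 0.15 and 0.95 ± 0.16 in wild-type cells, all past the threshold. Ratios of 2 genes were taken between their CPM per kilobase of exon length within each library, and can be followed across groups. Psmb8 over Psmb5 was 0.533 ± 0.059 in knockout cells with IFNγ and 0.173 ± 0.020 with vehicle (SD, n = 5), and 0.536 ± 0.250 in wild-type cells with IFNγ and 0.220 ± 0.033 with vehicle. The wild-type IFNγ mean was raised by replicate 4, at 0.982, with 0.392 to 0.468 in the other libraries. Knockout libraries with IFNγ ran between 0.449 and 0.616. Psmb9 over Psmb6 was 0.196 ± 0.070 in knockout cells with IFNγ and 0.040 ± 0.013 with vehicle, and 0.158 ± 0.052 in wild-type cells with IFNγ and 0.073 ± 0.011 with vehicle. Psmb10 over Psmb7 was 3.05 ± 1.17 in knockout cells with IFNγ and 1.23 ± 0.32 with vehicle, and 3.59 ± 0.94 in wild-type cells with IFNγ and 1.44 ± 0.39 with vehicle. For Psmb8 over Psmb5 and Psmb10 over Psmb7 the IFNγ libraries of wild-type cells all lay above those with vehicle. For Psmb9 over Psmb6 they did so except replicate 4, at 0.072, inside the vehicle range of 0.056 to 0.083. In knockout cells all IFNγ libraries lay above all vehicle libraries for the first and second ratio, and for the third the lowest IFNγ library, at 1.47, lay inside the vehicle range of 0.780 to 1.49.

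The 3 genes matched by name alone differed. Psme2b, a near copy of Psme2, rose by 1.23 ± 0.11 in knockout (adjusted p = 4.7e-08) and 1.19 ± 0.11 in wild-type cells (adjusted p = 3.5e-08), and since its sequence is close to that of Psme2 the assignment of its reads is uncertain. Psme3ip1, a partner of Psme3, rose by 0.42 ± 0.13 in wild-type cells (adjusted p = 0.0075) and stood at 0.05 ± 0.13 in knockout cells. The wild-type call was lost with plain library totals and in batch 1 alone. Its wild-type ratios were 0.08, 0.94 and 0.95 in batches 1, 2 and 3. Psmc3ip, a meiotic recombination factor, fell by 1.10 ± 0.30 in wild-type cells (adjusted p = 0.0041), with a ratio of -0.64 ± 0.30 in knockout cells, and its wild-type ratios were -0.72, -3.27 and -1.31 in batches 1, 2 and 3.

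Knockout and wild-type cells were compared next. Under IFNγ 9 members were higher in the knockout and 3 lower, against 20% and 19% of all genes. Under vehicle 4 were higher and 1 lower, against 12.5% and 14.8% of all genes. The members' median log2 ratio was 0.17 under IFNγ and 0.12 under vehicle, beside 0.01 and 0.03 over all genes. Psmb5 and Psmd14 were higher in the knockout under both treatments. None of the 12 calls under IFNγ and none of the 5 under vehicle held in all 29 alternative settings.

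**Figure D3:**
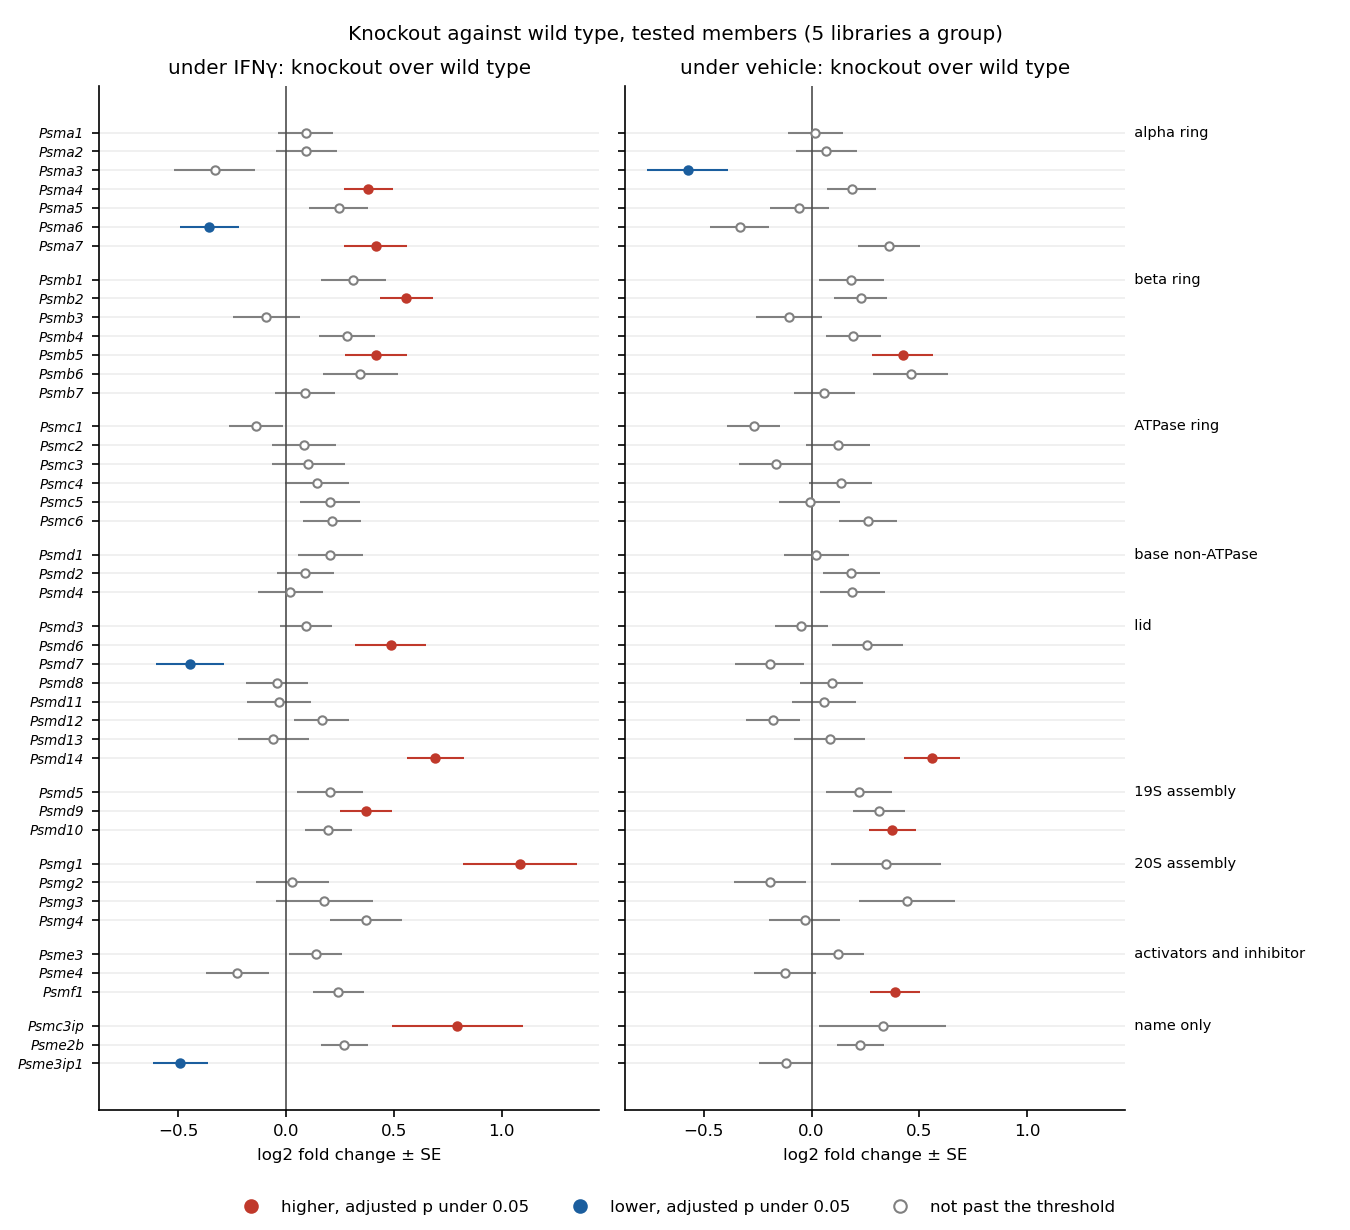
Log2 ratio (knockout over wild type) ± SE of the 44 tested members, by role, under IFNγ and under vehicle, from edgeR's model over 20 libraries. Filled red points were higher and filled blue points lower in the knockout at an adjusted p under 0.05, and Psmd14 and Psmb5 are red in both panels.

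Psmd14 stood at 231, 226, 236, 145 and 163 CPM in knockout cells and at 122, 113, 110, 115 and 147 CPM in wild-type cells under IFNγ. Under vehicle it stood at 245, 241, 220, 206 and 213 CPM in knockout cells and at 174, 174, 172, 139 and 111 CPM in wild-type cells. The vehicle groups did not overlap, and under IFNγ batch 3 of the wild type exceeded batch 2 of the knockout. It was higher in the knockout by 0.69 ± 0.13 under IFNγ (adjusted p = 3.5e-04) and by 0.56 ± 0.13 under vehicle (adjusted p = 0.0031), a call lost in each case only with batches 2 and 3 alone. Psmb5 stood at 108, 96.2, 92.6, 72.2 and 47.5 CPM in knockout cells and at 64.7, 67.9, 66.9, 43.0 and 65.0 CPM in wild-type cells under IFNγ. Under vehicle it stood at 110, 103, 93.9, 86.1 and 101 CPM in knockout cells and at 80.5, 74.6, 91.3, 67.3 and 59.0 CPM in wild-type cells. The knockout lay above the wild type in every batch under vehicle, and in batches 1 and 2 under IFNγ. It was higher by 0.42 ± 0.14 under both (adjusted p = 0.024 under IFNγ and 0.030 under vehicle). The IFNγ call was lost without wild-type IFNγ replicate 1 or 4 or knockout IFNγ replicate 1 or 2, at 0.35 to 0.40. It was also lost with no batch term and with batches 2 and 3 alone, and held in 23 of 29 settings. The vehicle call was lost without wild-type vehicle replicate 1, 2 or 5 or knockout vehicle replicate 1, 4 or 5, at 0.34 to 0.42. Plain library totals, no batch term, the replicate block, and batches 2 and 3 alone also ended the vehicle call, which held in 19 of 29 settings.

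Under IFNγ Psmg1 was the member with the largest difference between the lines. It was higher in the knockout by 1.09 ± 0.26 (adjusted p = 0.0027), with ratios of 1.03, 2.12 and 0.29 in batches 1, 2 and 3, and the call was lost with batches 2 and 3 alone. Under vehicle its ratio was 0.34 ± 0.25 (adjusted p = 0.34). Psmb2, a structural beta subunit, was higher in the knockout by 0.56 ± 0.12 (adjusted p = 0.0013), Psma4 by 0.38 ± 0.11 (adjusted p = 0.011), Psmd9 by 0.37 ± 0.12 (adjusted p = 0.020), Psma7 by 0.42 ± 0.15 (adjusted p = 0.029) and Psmd6 by 0.49 ± 0.16 (adjusted p = 0.023). All 5 of these calls were lost with batches 2 and 3 alone. Psma7 was also lost without any 1 of the batch 1 libraries with IFNγ of either line (0.33 to 0.41), Psmd6 without wild-type IFNγ replicate 4 (0.35) or knockout IFNγ replicate 1, 2 or 3 (0.44 to 0.46), and Psmd9 without wild-type IFNγ replicate 2 (0.34). Without the batch term Psma4, Psmd6 and Psmd9 lost their calls, as did Psmd6 with plain library totals and Psmd9 with no filter. Psmc3ip was higher by 0.80 ± 0.30 (adjusted p = 0.043), held in 16 of 29 settings, with 0.50 left without wild-type IFNγ replicate 4.

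Psme3ip1, Psmd7 and Psma6 were lower in the knockout under IFNγ. Psme3ip1 stood at 66.1, 60.8, 58.5, 71.2 and 62.3 CPM in knockout cells and at 78.2, 77.9, 81.8, 106 and 103 CPM in wild-type cells. All 5 knockout libraries were below all 5 of the wild type, which held for 1 member, against 8.57% of all genes. The log2 ratio was -0.49 ± 0.13 (adjusted p = 0.0042). Psmd7, a partner of Psmd14 in the lid, had a ratio of -0.44 ± 0.16 (adjusted p = 0.033), lost without replicate 4 or 5 of either IFNγ group and at -0.26 without wild-type IFNγ replicate 5. The call held in 21 of 29 settings. It was also lost with plain library totals, no batch term, the replicate block, and batch 1 alone, where the ratio was -0.06 ± 0.05. Psma6 had a ratio of -0.35 ± 0.14 (adjusted p = 0.047), held in 7 of 29 settings and at -0.18 without wild-type IFNγ replicate 5.

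Under vehicle the knockout was also higher for Psmd10, by 0.37 ± 0.11 (adjusted p = 0.014), and for Psmf1, by 0.39 ± 0.12 (adjusted p = 0.018), lost without wild-type vehicle replicate 5 at 0.30. Both calls were also lost with no filter and with batches 2 and 3 alone, and that of Psmf1 with no batch term. Psma3 was lower in the knockout. It stood at 167, 156, 153, 111 and 121 CPM in knockout cells and at 251, 250.4, 253, 155 and 152 CPM in wild-type cells with vehicle. The knockout lay below the wild type within every batch, although the groups overlapped. The log2 ratio was -0.58 ± 0.19 (adjusted p = 0.026), lost without wild-type vehicle replicate 1, 2 or 3 or knockout vehicle replicate 4 or 5, at -0.48 to -0.56. This call was also lost with batches 2 and 3 alone. Psmb6 did not pass (0.46 ± 0.18, adjusted p = 0.057), although all 5 knockout libraries lay above all 5 of the wild type, as for Psmd10 and Psmd14. This held for 3 members, against 11.8% of all genes.

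The difference of the IFNγ responses between the lines passed for no member in edgeR's test (0 higher and 0 lower, against 3.64% and 2.86% of all genes), nor with DESeq2 or limma-voom. At an unadjusted p under 0.05 there was 1 member. The largest differences, knockout minus wild type, were 0.74 ± 0.36 for Psmg1 (adjusted p = 0.25), 0.47 ± 0.42 for Psmc3ip and 0.40 ± 0.23 for Psmg4. Calls made in 1 line and missed in the other are therefore not shown to differ between the lines in the fit of all batches. Psmb9 differed, with a response larger in the knockout by 1.06 ± 0.21 (adjusted p = 0.0044).

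The responses of the members moved with batch, in opposite directions in the lines. In knockout cells the median IFNγ ratio of the 44 members was 0.01 in batch 1, -0.22 in batch 2 and -0.45 in batch 3. In wild-type cells it was -0.41 in batch 1, -0.09 in batch 2 and 0.32 in batch 3, with 39, 25 and 8 members lower. Of all genes 48.0%, 53.1% and 51.7% were lower there. The medians of all genes lay between -0.10 and 0.05 in these 6 contrasts. The knockout ratio under IFNγ followed, with medians of 0.41, -0.04 and -0.44 and 40, 20 and 7 members higher. All genes had medians of -0.02, 0.03 and 0.04 there, with 48.7%, 51.1% and 51.8% higher. Under vehicle the knockout ratio went the other way, with medians of -0.01, 0.22 and 0.43 and 20, 38 and 39 members higher. All genes had medians of 0.02, 0.03 and 0.01 there, with 51.3%, 52.3% and 50.8% higher. Batches 2 and 3 each held 1 library a group, so their values set 1 library against 1.

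**Figure D4:**
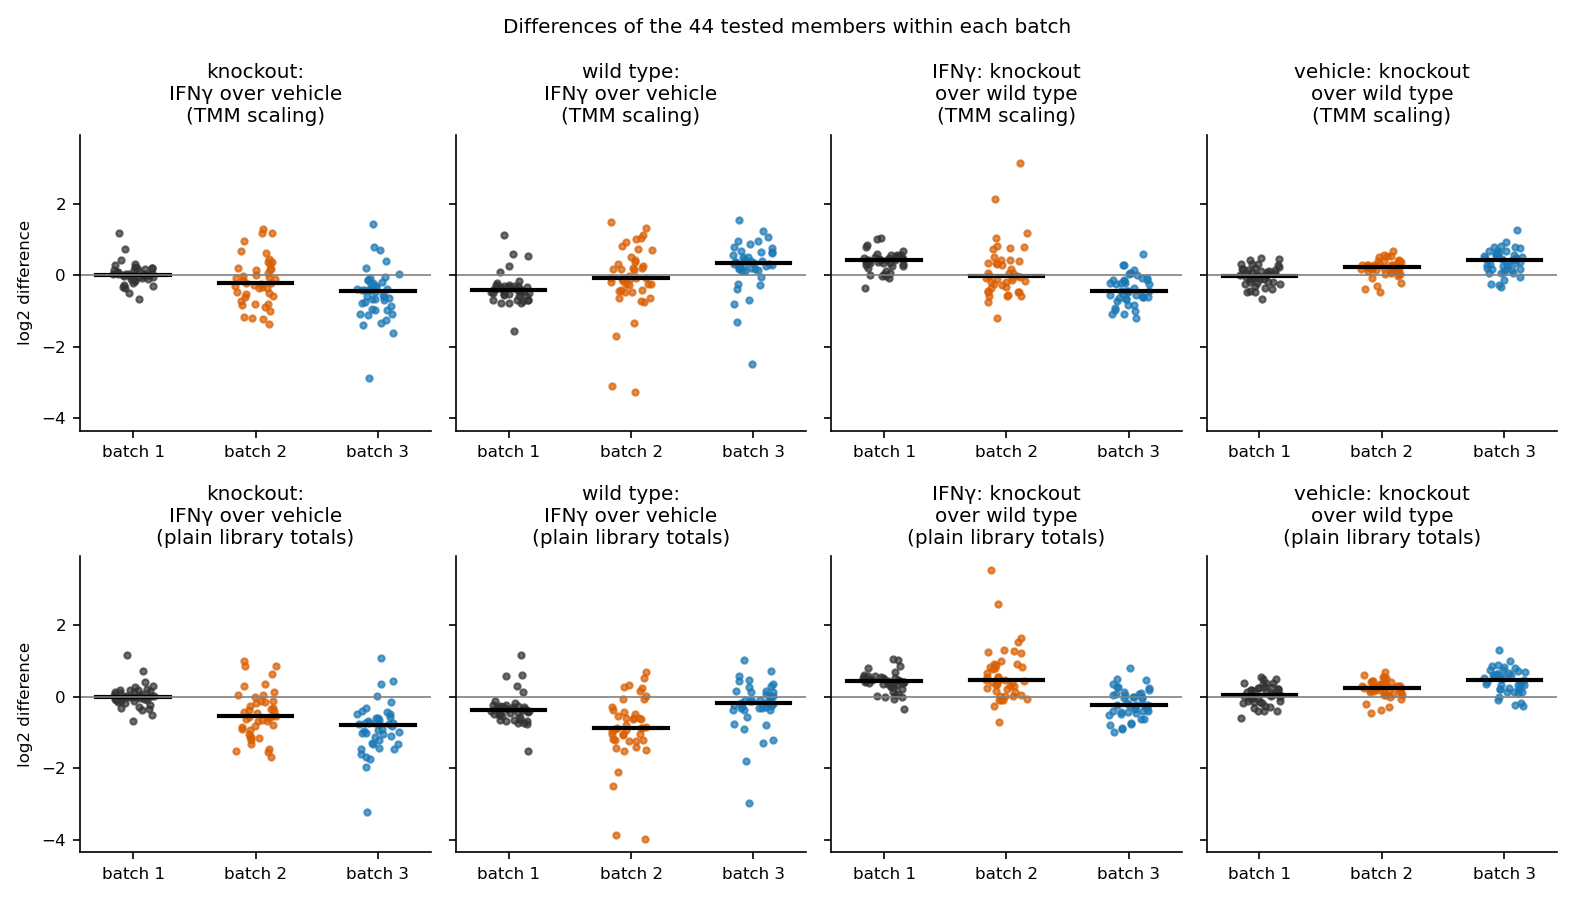
Log2 differences of the 44 tested members within each batch (a point is 1 member, a bar their median), for 4 comparisons, with TMM scaling above and plain library totals below. With TMM the wild-type IFNγ medians are -0.41, -0.09 and 0.32 in batches 1, 2 and 3, and with plain totals -0.37, -0.88 and -0.18.

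Plain library totals changed these medians in batches 2 and 3. With them the wild-type IFNγ medians were -0.37, -0.88 and -0.18, beside all-gene medians of 0.08, -0.86 and -0.55. In knockout cells they were -0.01, -0.54 and -0.80, beside all-gene medians of -0.04, -0.38 and -0.33. The members' median in batch 3 of the wild type was above 0 with TMM and below 0 with plain totals, and above the all-gene median with both.

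Fitted alone, batch 1 gave 15 members higher and 7 lower with IFNγ in knockout cells, against 28.1% and 28.4% of all genes tested there. In wild-type cells it gave 4 higher and 39 lower, against 37.4% and 36.7% of all genes. In batch 1 Malat1 stood at 53.2 to 59.4 CPM in knockout cells with IFNγ and 48.2 to 67.5 CPM with vehicle, and at 338 to 370.1 CPM in wild-type cells with IFNγ and 63.8 to 81.5 CPM with vehicle. Neat1, another nuclear noncoding RNA, stood at 81.6 to 98.2 CPM in knockout cells with IFNγ and 31.5 to 48.6 CPM with vehicle, and at 216 to 258 CPM in wild-type cells with IFNγ and 34.0 to 58.9 CPM with vehicle. Both were highest in the wild-type cells with IFNγ, and their part in the result was not tested. Psmd1 fell there by 0.72 ± 0.05, Psma5 by 0.49 ± 0.05 and Psmd2 by 0.47 ± 0.04 on the log2 scale in wild-type cells, while the same genes stood at 0.02 ± 0.05, 0.32 ± 0.05 and -0.08 ± 0.04 in knockout cells. Under IFNγ 36 members were higher in the knockout and 1 lower, against 35.8% and 33.5% of all genes, and under vehicle 10 were higher and 16 lower, against 28.4% and 30%. The difference of responses passed for 36 members, all higher in the knockout, against 29.7% of all genes higher and 21.6% lower. With batches 2 and 3 alone, edgeR gave 3 higher and 7 lower with IFNγ in knockout cells, against 15.3% and 14.6% of all genes, and 6 higher and 4 lower in wild-type cells, against 17.1% and 18.6%. The 4 were Psmc3ip, Psmd6, Psmg1 and Psmg2, so the other 10 members that fell in wild-type cells over all batches, Psmd10, Psme3 and Psmc5 among them, lost their call there. Between the lines it gave 0 higher and 2 lower under IFNγ, against 6.38% and 7.05% of all genes, and 0 and 0 under vehicle, against 1.5% and 4.43%. For the difference of responses it gave 0 and 0, against 0.728% and 0.119%. They hold 2 libraries a group, against 3 in batch 1. Counts of libraries of 1 group differed by a chi-square per degree of freedom of 3.54 to 13.3 within batch 1 and of 14.1 to 356 between batches.

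A test of the IFNγ response in batches 2 and 3 against batch 1, added after the data were seen, set these batches against each other. In wild-type cells the response was higher in batches 2 and 3 for 26 members and lower for 2, against 16.2% and 19.4% of all genes. All 7 tested alpha subunits, 4 of 7 beta subunits, 4 of 6 ATPases, all 3 other base subunits and 6 of 8 lid subunits were among the 26, with Psma3 at 1.37 ± 0.17, Psmd4 at 1.00 ± 0.14 and Psmd11 at 0.98 ± 0.16. The 20S chaperones were not, with a median of -0.30 and Psmg1 among the 2 lower. In knockout cells the response was lower in batches 2 and 3 for 12 members and higher for none, against 15.8% and 13.2% of all genes. The knockout ratio under IFNγ was lower in batches 2 and 3 for 25 members and higher for none, against 14.8% and 15.4%. Under vehicle it was higher for 4 and lower for none, against 2.66% and 2.92%. The difference of responses was lower for 29 members and higher for none, against 11% and 10.4%. These comparisons share groups, so their counts are not independent.

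Across all 3 batches with TMM scaling, 4 members were higher and 16 lower with IFNγ in knockout cells, against 28% and 31.8% of all genes. In wild-type cells 5 were higher and 8 lower in every batch, against 30% and 32.7%. The 8 were Psmc3ip, Psmc5, Psmd6, Psmd10, Psme3, Psmg1, Psmg2 and Psmg4, so no core ring subunit was among them. Between the lines 19 members were higher and 3 lower in every batch under vehicle, against 29.6% and 27.5% of all genes, and 4 were higher and 3 lower under IFNγ, against 23.5% and 23.1% of all genes.

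Other genes of the pathway were read from a list of 39, of which 37 passed the filter. Ddi1 had no read in any library, and Paaf1 is not analysed here. With IFNγ 7 of the 37 rose and 7 fell in knockout cells, against 21.4% and 21.8% of all genes, and 10 rose and 8 fell in wild-type cells, against 29% and 29.9%. Zfand2a, a proteasome-binding protein induced by arsenite, rose by 1.20 ± 0.11 in knockout (adjusted p = 4.8e-08) and 2.01 ± 0.11 in wild-type cells (adjusted p = 3.4e-11). It was the 1 gene of the list whose responses differed between the lines, by -0.82 ± 0.15 (adjusted p = 0.0029). Syvn1, the ligase of the endoplasmic reticulum that also turns over Nfe2l1, rose by 0.95 ± 0.12 in knockout and 1.29 ± 0.12 in wild-type cells. Usp14 and Ube3c, a deubiquitinase and a ligase bound to the proteasome, fell by 0.49 ± 0.13 and 0.72 ± 0.17 in knockout cells and by 0.77 ± 0.13 and 0.98 ± 0.17 in wild-type cells on the log2 scale, all 4 past the threshold. Nfe2l1, the transcription factor that restores proteasome genes when proteolysis is blocked, rose by 0.66 ± 0.15 in wild-type cells (adjusted p = 9.9e-04) and stood at 0.31 ± 0.15 in knockout cells (adjusted p = 0.098).

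Between the lines 12 of the 37 were higher in the knockout and 5 lower under IFNγ, against 20% and 19% of all genes, and 9 were higher and 2 lower under vehicle, against 12.5% and 14.8%. The shuttle Ubqln2, which carries ubiquitinated proteins to the proteasome, was higher by 1.44 ± 0.15 under IFNγ (adjusted p = 4.9e-07) and 1.11 ± 0.15 under vehicle (adjusted p = 1.2e-05). The segregase Vcp was higher by 0.97 ± 0.14 under IFNγ and 0.78 ± 0.14 under vehicle, the shuttle Rad23b by 0.48 ± 0.10 and 0.88 ± 0.10, and the adaptor Ecpas by 0.75 ± 0.12 and 0.95 ± 0.12, all past the threshold. The protease Ddi2, which activates Nfe2l1, had ratios of -0.75 ± 0.11 under IFNγ and -0.66 ± 0.11 under vehicle (adjusted p = 2.4e-05 and 1.2e-04). Pithd1, a proteasome-associated protein, had ratios of -0.99 ± 0.15 and -0.49 ± 0.15, both past the threshold.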

How the data were processed

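The authors deposited raw read counts per gene for 20 libraries, per the labels. The submitters' processing notes list GRCm39 as the build and, with no version, STAR, Trim Galore, FastQC and DESeq2. Not given in the sources used here were the counter, the strand setting and the annotation release. Reads of paralogs, pseudogenes or overlapping genes may therefore be split either way. Of 56941 gene IDs, 52000 matched a symbol in GENCODE vM21 (GRCm38) and 28314 had no read. No table column lay outside the 20 libraries.

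Counts were tested with edgeR 4.0.16 (R 4.3.3, limma 3.58.1) by glmQLFit with robust dispersion and glmQLFTest on group and batch, with TMM scaling and filterByExpr over the 4 groups. This left 13755 genes and 14 residual degrees of freedom. Benjamini-Hochberg adjusted p-values run over all of them, and calls need an adjusted p under 0.05. The script was tested on simulated data. The biological coefficient of variation was 24.2%. The 29 alternatives were DESeq2 1.42.0, limma-voom, RLE, plain totals, no filter, no batch term, the replicate block, batch 1 alone, batches 2 and 3 alone, and each library left out. The labels call the replicates biological without naming cultures, so p-values cover only the spread between these libraries, which may be technical.

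Members and lists were chosen with earlier results of these data known. Every member is accounted for. The naming rule took a panel (Psmb5, Psmb6, Psmb7, Psma7, Psmc4, Psmd4, Psmd11, Psmd14, Psme3, Psme4, Psmf1, Psmg1) and, in each role and comparison, at most 2 members called in each direction, those of lowest p, or the member of highest mean where none was called. For pathway genes it took at most 3 in each direction, with Nfe2l1 and Pomp. Library values are printed for those the results turn on, and other called members are given by their ratio. Exact permutation tests over libraries were two-sided and ignored batch. Some items are not reported here.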

Additional observations from a re-analysis of the deposited data

Results flagged for a closer look

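In 10 of 128 groups of 5 libraries checked, 1 library lay farther from the nearest other than Dixon's critical value of 0.71 of the group's range allows. That value flags about 1 in 20 groups by chance where all libraries of a group are drawn alike. Each group here spans 3 batches, so that rate does not hold for them. All 10 were IFNγ libraries of batch 2 or 3. Knockout replicate 4 was highest for Psmb6 at 1293 CPM and Psmd8 at 1033 CPM, and lowest for Psme4 at 63.6 CPM and Psmd5 at 39.7 CPM. Knockout replicate 5 was lowest for Psma7 at 165 CPM and Psmd9 at 35.8 CPM. Wild-type replicate 4 was lowest for Psmb5 at 43.0 CPM, Psmc4 at 71.0 CPM, Psmd5 at 47.9 CPM and Psmd7 at 109 CPM. The IFNγ response differed between the lines, knockout minus wild type, by -0.82 on the log2 scale for Zfand2a and by 1.06 for Psmb9.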

How the results depend on the processing

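Counts of members called, as higher and lower, were 3 and 6 for IFNγ in knockout cells, 5 and 14 for IFNγ in wild-type cells, 9 and 3 for the knockout under IFNγ, 4 and 1 for the knockout under vehicle, and 0 and 0 for the difference of responses. With plain library totals 11 fell in knockout and 27 in wild-type cells (24.6% and 35.4% of all genes) while 3 rose in wild-type cells (20.5%), and 16 were higher and 1 lower in the knockout under IFNγ (22% and 13.3%). Without the batch term 2 fell in knockout and 6 in wild-type cells, 4 were higher and 1 lower in the knockout under IFNγ, and 2 higher under vehicle. Of all 13755 genes, 1605 fell in knockout and 3280 in wild-type cells then, against 3000 and 4115 with the term. The knockout had 1791 higher and 1799 lower under IFNγ, against 2754 and 2609, and 944 higher under vehicle, against 1723. In batch 1 alone 15 rose in knockout and 39 fell in wild-type cells, 36 were higher and 1 lower in the knockout under IFNγ, 10 higher and 16 lower under vehicle (28.4% and 30% of all genes), and 36 higher for the difference. In batches 2 and 3 alone 4 fell in wild-type cells, 0 were higher in the knockout under IFNγ, and 0 higher and 0 lower under vehicle. RLE and DESeq2 each gave 2 lower under vehicle, and no filter gave 1 higher for the difference. Of all 13755 genes 2199 with RLE and 2487 with DESeq2 were lower under vehicle. Without the filter 750 of 28627 genes were higher for the difference. With the replicate block 1 was lower in the knockout under IFNγ (2340 of all 13755 genes), and no other count moved by over 1.5 times. Replicate numbers did not pair libraries within batch 1, where correlations of same-numbered deviations were -0.04 to 0.04. Leaving out 1 library gave 3 to 4 higher and 5 to 8 lower for IFNγ in knockout cells, 4 to 5 and 10 to 22 in wild-type cells, 5 to 14 and 1 to 3 for the knockout under IFNγ, 2 to 6 and 0 to 2 under vehicle, and 0 to 2 and 0 for the difference. The 22 and the 14 came without wild-type IFNγ replicate 5, the 5 without knockout IFNγ replicate 1 or 2, the 1 without replicate 4 or 5 of either IFNγ group, and the 2 of the difference without knockout IFNγ replicate 5. Under vehicle, 2 higher came without wild-type vehicle replicate 5, 0 lower without wild-type vehicle replicates 1 to 3 or knockout vehicle replicate 4 or 5, and 2 lower without replicate 5 of wild-type vehicle or IFNγ. In the same fits 13951 to 14077 genes were tested. Of these, 2413 to 3159 rose and 2498 to 3412 fell with IFNγ in knockout cells. In wild-type cells 3745 to 4270 rose and 3848 to 4354 fell. Under IFNγ 2352 to 2950 were higher and 2261 to 2744 lower in the knockout, and under vehicle 1418 to 2124 and 1772 to 2370. For the difference 291 to 836 were higher and 247 to 617 lower. The Rgs10 ratio under vehicle kept its call, at -1.30 to -1.07. Sign changes follow for called members and those picked by the naming rule, where the main or the alternative fit passed the threshold. Members outside these also turned, as Psmc2 did in batch 1 alone for IFNγ in knockout cells (0.20). In batch 1 alone the sign turned for Psmc4 (0.12) in the IFNγ response of knockout cells, for Psmb7 (-0.17), Psmd4 (-0.32) and Psmd11 (-0.33) in that of wild-type cells, for Psma6 (0.00338) and Psmd11 (0.37) in the knockout under IFNγ, for Psmc4 (-0.11), Psmd11 (-0.11) and Psme3 (-0.11) under vehicle, and for Psmb5 (0.29), Psmd2 (0.39), Psmd4 (0.38), Psmd5 (0.44) and Psmd11 (0.48) in the difference. In batches 2 and 3 alone it turned for Psmd1 (0.026), Psmd3 (0.026), Psmd12 (0.10) and Psmd14 (0.064) in wild-type cells and for Psma7 (-0.096) in the knockout under IFNγ. The cause was not tested. Of members called, 4 of 9 for IFNγ in knockout and 5 of 19 in wild-type cells kept the call in all 29 settings, and none of 12 and 5 between the lines.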
